A study of Mus musculus with 4 samples.

Results

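The 38 genes described here make cholesterol and its isoprenoid precursors, control and move sterols, or build fatty acids. They were taken by symbol from a given list, with no threshold on their values, out of 55426 genes in the deposited tables. The list was chosen with earlier results of these data known, so its shares beside those of all genes are a description. All 38 passed the filter on low counts, as did 13245 genes in all. RNA selected for poly(A) tails was sequenced from mouse lineage-negative bone marrow cells, described in the labels as transformed haematopoietic stem and progenitor cells. One line carried the MLL-ENL fusion (2 libraries), a leukaemia oncoprotein that joins MLL, a histone methyltransferase, to ENL, a reader of chromatin. The other line, labelled MLL-ENL ∆YEATS (aa372-559) (2 libraries, called dYEATS here), carried a fusion with ENL residues 372 to 559 and so without the YEATS domain, which binds acylated lysines on histones. Both lines grew in IMEM with 15% serum at 37 °C and 5% CO2, and no treatment is named. The design text calls the libraries of a line technical replicates, so p-values measure the spread between libraries, and line and genotype cannot be told apart. Which residues of ENL the full fusion held is not stated in the labels used here.

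Cholesterol is built from acetyl-CoA by way of mevalonate, isoprenoids such as farnesyl diphosphate, squalene and lanosterol. The SREBP transcription factors, made from Srebf1 and Srebf2, are held in the endoplasmic reticulum by SCAP and the INSIG proteins while sterol is plentiful; when it runs low they are cleaved and switch on genes of sterol synthesis, sterol uptake and fatty acid synthesis. The liver X receptors (LXR, from Nr1h2 and Nr1h3) are activated by oxysterols and drive sterol export through Abca1 and Abcg1, and also Srebf1 and Scd1. Blood cells both make sterols and take them from lipoproteins, and dividing cells need them for membranes.

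SREBP acts at promoters together with the factor NF-Y. Of the 17 genes that fell in the dYEATS libraries, 5 were picked as examples. Tm7sf2, the sterol synthesis gene that fell most, is not among them. Shown are the promoters of 4 enzymes of the sterol path, Hmgcs1, Mvk, Mvd and Nsdhl, and of the SREBP inhibitor Insig1. Each is the 150 bases before the RefSeq transcription start (GRCm38.p6), read 5′ to 3′ on the gene's strand, without bases that GENCODE places in an exon (41 at the far end of Nsdhl, in its neighbour Cetn2, and 49 next to the start in Insig1). Capitals mark matches, on either strand, to the sterol regulatory element TCACNCCAC, the NF-Y box CCAAT and the E-box CACGTG. A box on the opposite strand appears as its reverse complement, and none of these motifs contains another. The stretches lie at chr13:119690201-119690350 (Hmgcs1, plus strand), chr5:114444119-114444268 (Mvk, plus strand), chr8:122443423-122443572 (Mvd, minus strand), chrX:72918412-72918520 (Nsdhl, plus strand), chr5:28071262-28071362 (Insig1, plus strand).
Hmgcs1: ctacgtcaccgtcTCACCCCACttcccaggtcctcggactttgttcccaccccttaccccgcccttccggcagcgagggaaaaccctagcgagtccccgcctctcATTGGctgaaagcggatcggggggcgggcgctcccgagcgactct
Mvk: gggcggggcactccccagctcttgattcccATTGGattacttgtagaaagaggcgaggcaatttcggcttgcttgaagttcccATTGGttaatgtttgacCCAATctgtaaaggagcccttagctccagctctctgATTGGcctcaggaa
Mvd: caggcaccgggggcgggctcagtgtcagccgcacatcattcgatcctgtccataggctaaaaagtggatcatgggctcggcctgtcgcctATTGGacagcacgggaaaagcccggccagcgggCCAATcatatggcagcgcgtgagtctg
Nsdhl: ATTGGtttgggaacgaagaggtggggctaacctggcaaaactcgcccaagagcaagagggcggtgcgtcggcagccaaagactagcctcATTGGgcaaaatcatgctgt
Insig1: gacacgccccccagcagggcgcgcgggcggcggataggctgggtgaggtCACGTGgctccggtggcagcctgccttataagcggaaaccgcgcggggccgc
Among these 5 stretches the sterol element stood only in that of Hmgcs1, with its first base at -137 from the start, and the E-box only in that of Insig1, at -101. The other 3 held NF-Y boxes, as did Hmgcs1. For Insig1 an NF-Y box lay at -216, outside the stretch shown. RefSeq windows of 300 bases, 250 before and 50 after the start, were found for 30 of the 38 genes. The NF-Y box lay in 15 of the 19 windows of sterol synthesis genes (78.9%), in 24 of 39 windows of all listed genes (61.5%) and in 38.2% of 12190 windows of genes that passed the filter. It was found in windows of genes that fell, of genes not called, such as Hsd17b7, Ggps1 and Insig2, and of Soat1, which rose. Whether the boxes bear on the changes was not tested. The sterol element lay in 1 of the 39 windows (2.56%) and in 1.17% of windows of tested genes, and the E-box in 7 of 39 (17.9%) and 10.1%. The LXR repeat, in which AGGTCA stands on either side of a spacer of 4 bases, was in none of the 39 windows and in 0 of 12190. These are matches of letters, not binding sites, and other forms of the elements and more distant sequence were not searched.

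Most of the 38 genes had lower levels in the dYEATS libraries. By edgeR's quasi-likelihood test at an adjusted p under 0.05, 17 fell and 3 rose, against 9.84% and 7.04% of all 13245 genes tested, and 18 were not called. Both dYEATS libraries lay below both MLL-ENL libraries in 27 of the 38 genes (32.2% of all genes) and above them in 3 (32.1%), and in 8 the groups overlapped. The median log2 fold change (dYEATS minus MLL-ENL) was -0.51 over the 38 genes and -0.01 over all genes tested. The lowest value was that of the sterol exporter gene Abca1 (-5.71), and the highest that of the LXR gene Nr1h3 (1.21). The plot of differences shows the 38 genes by role. In bulk RNA, fewer cells of a kind and less RNA per cell cannot be told apart.

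**Figure D1:**
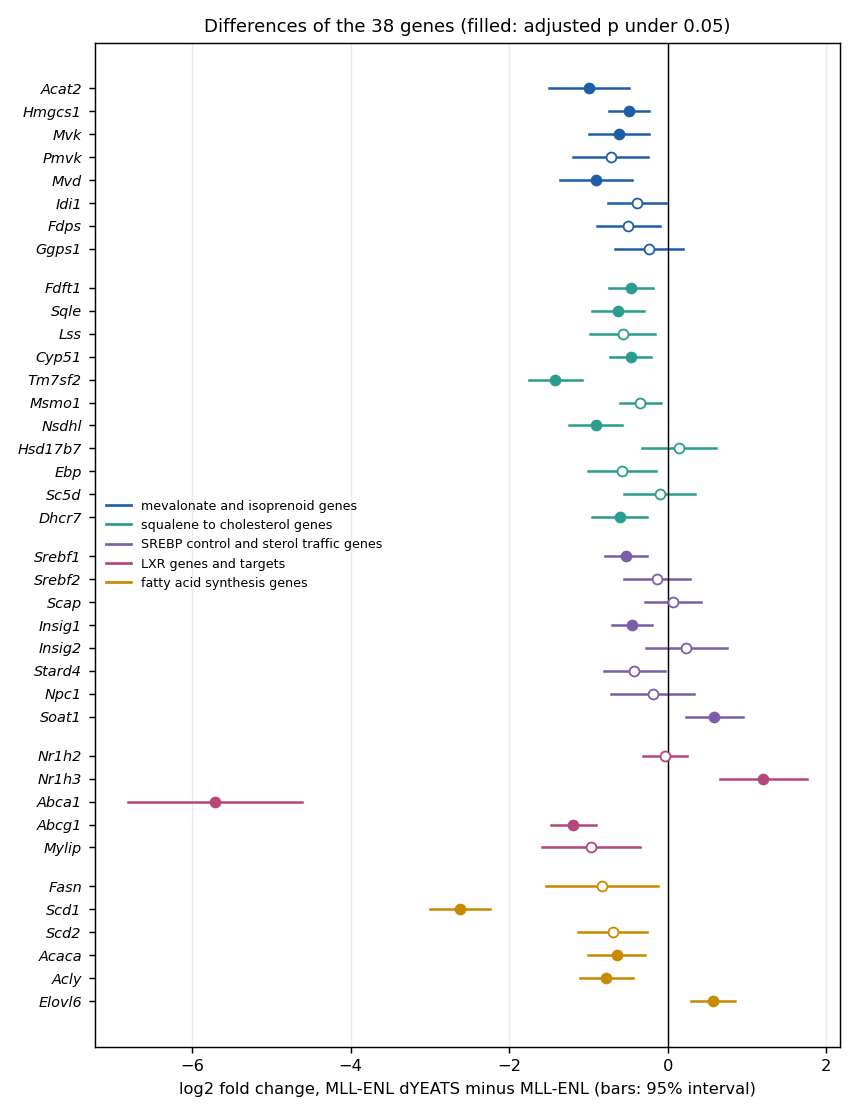
Log2 fold change of each of the 38 genes, dYEATS minus MLL-ENL, with its 95% interval from edgeR's quasi-likelihood fit (2 libraries per group), coloured by role. Points are filled where the adjusted p was under 0.05: 17 lie left of 0, led by Abca1 (-5.71) and Scd1 (-2.62), and 3 lie right of it (Nr1h3, Soat1 and Elovl6).

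Totals were 27812855 to 28814798 expected counts per library. Levels are given in CPM, which are counts scaled to one common total in every library, in the order library 1 and library 2, with MLL-ENL first. The dYEATS pair was close, and no listed gene other than Abca1 differed by more than 0.115 on the log2 scale between its libraries. The MLL-ENL pair was further apart, by up to 0.85 (Fasn), and in it the log2 ratio of library 1 to library 2 ran against exonic length (Spearman's rho = -0.54 over the 38 genes, which share these libraries and are not replicates). Of the 19 shorter genes 11 were higher in MLL-ENL library 1, and of the 19 longer genes 2. With this length trend taken out of the counts of all genes, 27 of the 38 fell and 3 rose, against 13.5% and 10.9% of all genes. With DESeq2 24 fell and 3 rose (10.5% and 7.74% of all genes), with library totals as scaling 10 and 2 (8.58% and 6.9%), and under limma with log2(FPKM + 1) likewise 10 and 2 (6.32% and 4.75%). Leaving out 1 library moved the calls most. Without MLL-ENL library 1, 31 of the 38 fell and 3 rose (28.9% and 28.3% of all genes), and without MLL-ENL library 2, 27 fell and 9 rose (34% and 34.6%). Without dYEATS library 1, 7 fell and 0 rose (6.49% and 4.39%), and without dYEATS library 2, 6 fell and 0 rose (6.5% and 4.33%); 1 gene was higher at an unadjusted p under 0.05 in each, and DESeq2 with all libraries called 3.

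Blood cell markers were present in every library (Ptprc and Spn, 595 to 739 CPM in sum), as were 5 granulocyte and monocyte markers. The sum of these 5 was 4816 and 4217 CPM in the MLL-ENL pair against 2316 and 2353 CPM. Most of it was Elane, at 3728 and 3106 CPM against 1773 and 1817 CPM. By the test 3 were lower (Mpo, Elane and Cebpa) and 1 higher (Csf1r). Itgam was not called, at 212 and 359 CPM against 388 and 382 CPM. Of 3 progenitor markers only Kit passed the filter, at 50.4 and 66.9 CPM against 2.62 and 3.91 CPM, and Cd34 and Flt3 were at no more than 0.187 CPM. The part of these marker differences in the values of the 38 genes was not tested. Of 5 adipocyte markers 4 had no counts and the sum was at most 0.0373 CPM.

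**Figure D2:**
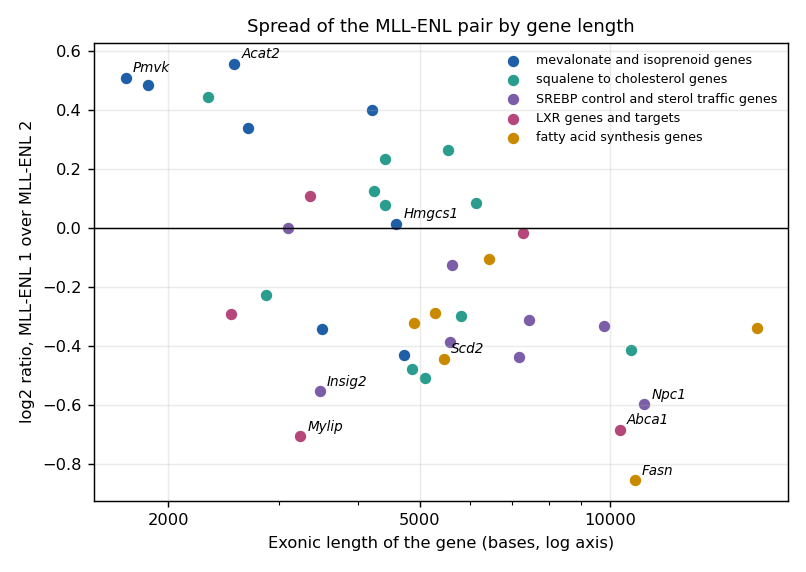
Log2 ratio of MLL-ENL library 1 to MLL-ENL library 2 for each of the 38 genes against the exonic length of the gene (bases, log axis), coloured by role. Short genes such as Pmvk and Acat2 lie above 0 and long genes such as Fasn and Npc1 below it (Spearman's rho = -0.54 over 38 genes).

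Among the genes that lead to mevalonate and isoprenoids, Acat2, Hmgcs1, Mvk and Mvd fell, that is 4 of 8, and 0 rose. Of all genes tested 9.84% fell and 7.04% rose. Of the 8 genes, 0 were higher at an unadjusted p under 0.05 and 0 were higher by DESeq2. All 8 values were below 0, with a median log2 fold change of -0.56. Acat2, which joins acetyl-CoA units at the start of the path, had 220.1 and 149.5 CPM in the MLL-ENL pair against 91.2 and 94.1 CPM in the dYEATS pair. Both dYEATS values lay below both MLL-ENL values, and the mean was 49.8% lower (log2 fold change -1.0 ± 0.20 SE, adjusted p = 0.027).

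Hmgcs1, the synthase that makes HMG-CoA, was at 222 and 219.7 CPM against 158 and 158 CPM and fell by 0.49 on the log2 scale (adjusted p = 0.0287). Mvd, which decarboxylates diphosphomevalonate, went from 161 and 115 CPM to 72.9 and 74.4 CPM (log2 fold change -0.90 ± 0.18 SE, adjusted p = 0.0268). Mvk, mevalonate kinase, went from 53.5 and 42.3 CPM to 32.0 and 30.4 CPM (log2 fold change -0.62, adjusted p = 0.0477). In each of these genes the groups were separate. Pmvk, the next kinase, was separate too, at 135 and 94.6 CPM against 69.7 and 69.4 CPM, but was not called (adjusted p = 0.0565, 95% interval of the log2 fold change -1.19 to -0.25).

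Fdps, which makes farnesyl diphosphate, had the highest level per length of the row, 662 and 539 FPKM against 449 and 441 FPKM, and was not called on counts (log2 fold change -0.50, adjusted p = 0.0929). Idi1, the isomerase before it, was at 247 and 314 CPM against 208 and 219.6 CPM and was not called either (-0.39, interval -0.76 to -0.02, adjusted p = 0.131). Ggps1, which turns farnesyl into geranylgeranyl diphosphate for protein prenylation, lay at 21.9 and 29.5 CPM against 21.6 and 22.1 CPM, and its groups overlapped (-0.24, interval -0.66 to 0.19, adjusted p = 0.391). The interval for this branch enzyme spans 0 and does not show that Ggps1 was equal. Of the 4 calls, those of Hmgcs1, Mvk and Mvd ended without dYEATS library 1 or 2 (adjusted p from 0.0593 to 0.54), and that of Acat2 stood in all 13 alternatives. The call of Mvk also ended with library totals (0.0525), without a filter (0.0591) and with the filter at 5 CPM (0.0609), and the calls of Mvk and Hmgcs1 under limma with log2(FPKM + 1) (0.0608 and 0.0613).

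From squalene to cholesterol, 6 of 11 genes fell and 0 rose, against 9.84% and 7.04% of all genes tested, with a median of -0.57. Of the 11 genes, 0 were higher at an unadjusted p under 0.05 and 0 were higher by DESeq2. The largest decrease was in Tm7sf2 (chromosome 19, 6062821 to 6068373, GRCm38), which encodes a sterol C14 reductase. Tm7sf2 was at 47.9 and 40.7 CPM against 16.3 and 16.8 CPM, with both dYEATS libraries far below the MLL-ENL pair (log2 fold change -1.42 ± 0.13 SE, adjusted p = 0.00239). The call stood in all 13 alternatives, with log2 fold changes from -1.53 to -1.27. Tm7sf2 shares 12.1% of its exonic bases with Vps51 on the same strand, which was at 37.5 to 53.9 CPM, so reads there could be split between the genes.

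Nsdhl, an X-linked dehydrogenase of the C4 demethylation complex (chromosome X, 72918557 to 72958514), went from 55.3 and 64.7 CPM to 33.2 and 30.7 CPM (log2 fold change -0.91 ± 0.13 SE, adjusted p = 0.0101). Sqle, squalene epoxidase, a rate-limiting step, went from 195 and 162 CPM to 113 and 118 CPM (-0.63, adjusted p = 0.0302). Dhcr7, the last reductase of one route to cholesterol, went from 101 and 125 CPM to 73.9 and 74.7 CPM (-0.60, adjusted p = 0.0396). These 3 had separate groups with close dYEATS libraries. Cyp51, lanosterol demethylase, went from 234 and 222 CPM to 163 and 167 CPM (-0.47, adjusted p = 0.0362). Fdft1, squalene synthase, went from 81.6 and 74.7 CPM to 55.9 and 57.8 CPM (-0.46, adjusted p = 0.0472), and both genes had separate groups. Fdft1 shares 18.3% of its exonic bases with Ctsb on the other strand, which was at 207 to 249 CPM.

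Other steps of this arm were not called. Lss, the cyclase that makes lanosterol, was at 141 and 188 CPM against 113 and 109.6 CPM (-0.57, adjusted p = 0.0714). Ebp, the sterol isomerase, was at 60.5 and 44.5 CPM against 35.1 and 35.4 CPM (-0.57, adjusted p = 0.081), and Msmo1, the C4 methyl oxidase, was at 155 and 146 CPM against 118 and 119.7 CPM (-0.34, adjusted p = 0.0838). In these 3 the groups were separate, with the dYEATS libraries lower. Hsd17b7, the ketone reductase that acts with Nsdhl and Msmo1, overlapped between groups at 50.7 and 72.0 CPM against 67.5 and 68.3 CPM (0.15, interval -0.32 to 0.61). Sc5d, the desaturase before Dhcr7, overlapped as well, at 93.9 and 131 CPM against 102 and 108 CPM (-0.10, interval -0.55 to 0.35), and leaving out MLL-ENL library 2 turned its value to 0.16.

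Added over the 19 sterol synthesis genes, levels were 2951 and 2745 CPM in the MLL-ENL pair against 1966 and 1991 CPM in the dYEATS pair. Of the 19 genes 16 had separate groups with the dYEATS libraries lower (32.2% of all genes tested), and the other 3 overlapped. Without dYEATS library 1 the calls of Sqle, Fdft1, Cyp51 and Dhcr7 ended (adjusted p from 0.376 to 0.616), and without library 2 those and Nsdhl (0.0881 to 0.54). The calls of Fdft1, Cyp51 and Dhcr7 also ended with library totals (0.0671, 0.054 and 0.0774) and under limma with log2(FPKM + 1) (0.0948, 0.0609 and 0.147). Those of Fdft1 and Cyp51 ended without a filter (0.0732 and 0.0517), and that of Fdft1 with the filter at 5 CPM (0.0505).

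**Figure D3:**
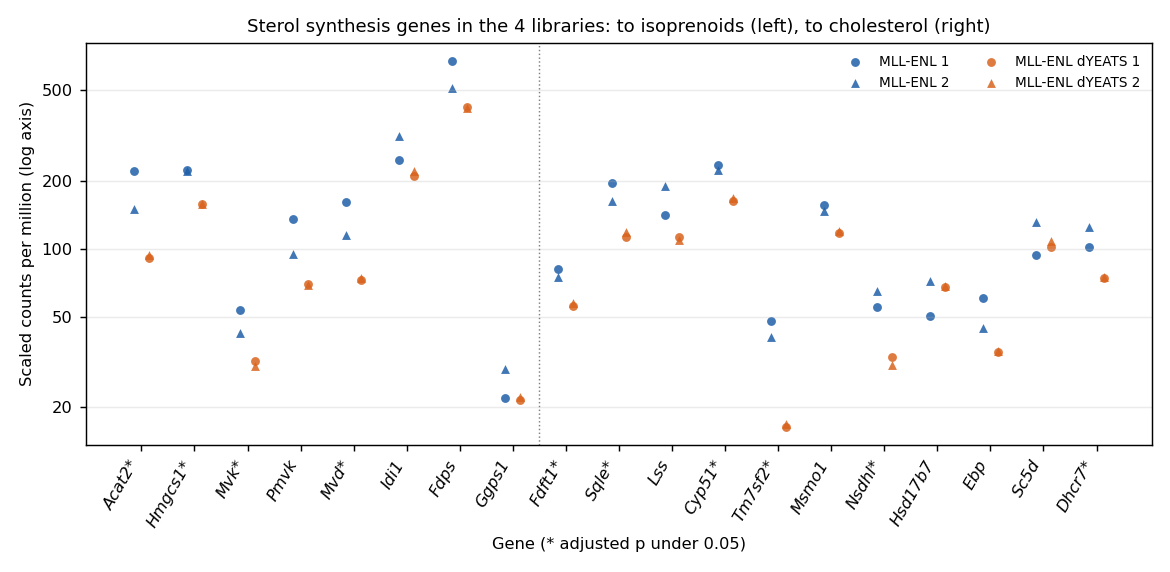
Level of the 19 sterol synthesis genes in each of the 4 libraries, in CPM on a log axis, in the order of the path, with an asterisk where the adjusted p was under 0.05. The dYEATS libraries (orange) lie below both MLL-ENL libraries (blue) in 16 genes (32.2% of all genes tested), and Ggps1, Hsd17b7 and Sc5d overlap.

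Among the genes that control SREBP, Srebf1 and Insig1 fell, and the other control genes were not called. Srebf1, the precursor of SREBP-1, was at 263 and 287 CPM against 189.8 and 191 CPM (log2 fold change -0.53 ± 0.11 SE, adjusted p = 0.0273). Insig1, itself a target of SREBP, was at 230.0 and 230.0 CPM against 167 and 169 CPM (-0.45 ± 0.10 SE, adjusted p = 0.0357). In both genes the groups were separate and each pair was close. Srebf2, the precursor of SREBP-2, overlapped between groups at 280.3 and 379.6 CPM against 305 and 298 CPM (-0.13, interval -0.55 to 0.29, adjusted p = 0.628). Scap, the escort protein, had 58.7 and 72.9 CPM against 68.6 and 69.0 CPM (0.06, interval -0.29 to 0.42). Insig2, the second INSIG gene, was low at 10.1 and 14.8 CPM against 14.4 and 15.0 CPM (0.24, interval -0.28 to 0.75).

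Per length, Srebf1 stood at 1.28 and 1.08 times Srebf2 in the MLL-ENL pair against 0.879 and 0.910 times in the dYEATS pair, so their order was turned in both dYEATS libraries. With 2 libraries against 2, the smallest p that an exact two-sided permutation test can give is 0.333, and the ratios are given as a description. Deposited counts per gene do not separate the SREBP-1a and SREBP-1c transcripts of Srebf1. The calls of Srebf1 and Insig1 ended without dYEATS library 1 or 2 (adjusted p from 0.466 to 0.605), with library totals (0.0554 and 0.0622) and under limma with log2(FPKM + 1) (0.10 and 0.0707). That of Insig1 also ended without a filter (0.0515).

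Of the genes that move and store sterol, Soat1 rose, whereas Stard4 and Npc1 were not called. Soat1 (chromosome 1, 156424525 to 156474331), the enzyme that esterifies cholesterol for storage in droplets, was at 114 and 143 CPM against 191 and 196 CPM (log2 fold change 0.59 ± 0.14 SE, adjusted p = 0.0472). Both dYEATS libraries lay above both MLL-ENL libraries. On FPKM the difference was larger (0.90 on log2(FPKM + 1), adjusted p = 0.0773), and the effective length that the deposited tables imply for Soat1 was 3406 and 2829 bases against 2646 and 2501 bases. The call also ended without dYEATS library 1 or 2 (0.318 and 0.388), with library totals (0.0606), without a filter (0.0528) and with the filter at 5 CPM (0.0563).

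Stard4, a sterol carrier in the cytosol and an SREBP target, was at 176 and 230.4 CPM against 151 and 154 CPM (-0.42, interval -0.81 to -0.03, adjusted p = 0.127). Npc1, which carries cholesterol out of lysosomes, overlapped at 88.7 and 134 CPM against 97.9 and 97.3 CPM (-0.19, interval -0.71 to 0.33). Its dYEATS libraries lay between the MLL-ENL libraries, and its value turned to 0.14 without MLL-ENL library 2.

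The LXR group held the largest decrease and the largest increase of the 38 genes. Of 5 genes 2 fell and 1 rose (9.84% and 7.04% of all genes tested), with a median of -0.97. Abca1 (chromosome 4, 53030787 to 53159895), which exports cholesterol to apolipoproteins, had 5.00 and 8.04 CPM in the MLL-ENL pair against 0.136 and 0.105 CPM in the dYEATS pair. These dYEATS levels are 4 and 3 counts, at or next to the floor of 3 counts per library. The ratio of MLL-ENL to dYEATS from summed counts (360 and 7) was 54.3, with an exact binomial 95% interval of 26.1 to 136 that covers counting error only, and the adjusted p was 0.00131. The call stood in the 12 alternatives that gave a value, and the gene was below the stricter filter.

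Abcg1 (chromosome 17, 31057675 to 31117988), a half-transporter that exports sterol to lipoproteins, was at 37.4 and 37.8 CPM against 16.9 and 16.0 CPM. Abcg1 fell by 1.19 on the log2 scale (SE 0.11, adjusted p = 0.00245), a smaller change than that of Abca1, and was called in all 13 alternatives. Mylip, a ubiquitin ligase induced by LXR that marks lipoprotein receptors for breakdown, was at 22.1 and 36.1 CPM against 15.0 and 14.8 CPM. Mylip had separate groups and was not called (-0.97 ± 0.24 SE, adjusted p = 0.0525).

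The receptors themselves did not follow the exporters. Nr1h3, which encodes LXR-alpha (chromosome 2, 91184061 to 91202834), rose from 1.31 and 1.60 CPM to 3.37 and 3.35 CPM (log2 fold change 1.21 ± 0.22 SE, adjusted p = 0.0198). Nr1h2, which encodes the widely expressed LXR-beta, was at 56.1 and 52.0 CPM against 52.9 and 52.8 CPM (-0.03, interval -0.31 to 0.24). Per length, Nr1h3 was at 0.0263 and 0.0322 of the level of Nr1h2 in the MLL-ENL pair against 0.0646 and 0.0725 in the dYEATS pair, so LXR-beta transcripts were the more abundant in all 4 libraries. The call of Nr1h3 ended without dYEATS library 1 or 2 (0.0668 and 0.0713). Of 5 macrophage markers, Adgre1 rose from 18.6 and 28 CPM to 45.7 and 43.3 CPM and Cd68 from 10.5 and 9.39 CPM to 20.6 and 22.4 CPM, Mrc1 was at 0.663 to 0.783 CPM, and C1qa and C1qb had no counts. The summed level of the 5 was 29.9 and 38.1 CPM against 67.1 and 66.4 CPM, and the part of these changes in the LXR values was not tested.

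Of 6 fatty acid synthesis genes, Scd1, Acaca and Acly fell and Elovl6 rose, against 9.84% and 7.04% of all genes tested. Fasn and Scd2 were not called, and the median of the 6 was -0.73. Scd1 (chromosome 19, 44394455 to 44407879), the desaturase that makes oleate from stearate, was at 142 and 178 CPM against 25.5 and 26.6 CPM. Both dYEATS libraries were far below the MLL-ENL pair (log2 fold change -2.62 ± 0.15 SE, adjusted p = 0.000573), and the call stood in all 13 alternatives, with values from -2.77 to -1.99. Scd2, its neighbour on chromosome 19 (44293674 to 44306864) and the major form here, was at 514 and 823 FPKM against 456 and 442 FPKM. On counts Scd2 was not called (-0.69 ± 0.17 SE, adjusted p = 0.0517), with separate groups.

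Per length, Scd1 was at 0.0854 and 0.0957 of the level of Scd2 in the MLL-ENL pair against 0.0389 and 0.0251 in the dYEATS pair. The dYEATS ratios lay below both MLL-ENL ratios, while the effective length implied for Scd1 was 3088 and 2282 bases against 1463 and 2441 bases. Reads of these similar genes could be split by the counting. Scd3 and Scd4, the other copies in the cluster, had at most 2 and 18 counts in a library.

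Acly, which makes acetyl-CoA from citrate, went from 583 and 712 CPM to 385 and 373 CPM (log2 fold change -0.77 ± 0.13 SE, adjusted p = 0.0175). Acaca, acetyl-CoA carboxylase, the committed step, went from 241 and 304 CPM to 177 and 172 CPM (-0.64 ± 0.14 SE, adjusted p = 0.0373). Both had separate groups. Fasn, fatty acid synthase, was at 1333 and 2409 CPM against 1071 and 1030.3 CPM, so the MLL-ENL libraries differed from each other more than library 1 did from the dYEATS pair. Fasn was not called on counts (-0.83 ± 0.28 SE, adjusted p = 0.106) and was called with limma on log2(FPKM + 1) (-0.93, adjusted p = 0.0207). The MLL-ENL pair was closer on FPKM, at 232 and 296 FPKM against 133 and 141 FPKM. The effective length implied for Fasn was 5462 and 8224 bases against 8210 and 7410 bases. Both the measure and the test differ between these fits, and the part of the lengths in the FPKM call was not tested.

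Elovl6, which extends palmitate to stearate and is known as an SREBP-1 target, rose (chromosome 3, 129532355 to 129638495). Its level was 56.3 and 60.5 CPM against 88.0 and 85.8 CPM, with both dYEATS libraries higher (0.57 ± 0.11 SE, adjusted p = 0.023). Elovl6 thus stood opposite to Scd1, Acaca and Acly, each of which fell. The calls of Acly, Acaca and Elovl6 ended without dYEATS library 1 or 2 (adjusted p from 0.148 to 0.4), and that of Acaca also with library totals (0.0716) and under limma with log2(FPKM + 1) (0.277). Summed over the 6 genes, levels were 5149.9 and 7459.8 CPM against 3788 and 3728 CPM.

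**Figure D4:**
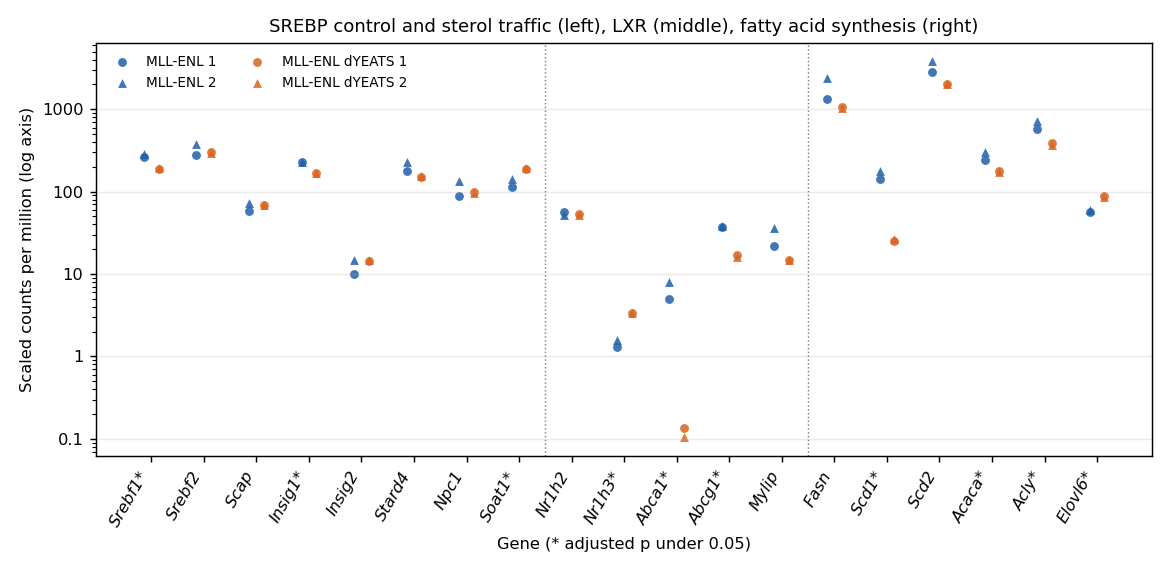
Level of the 19 genes of SREBP control and sterol traffic, LXR and fatty acid synthesis in each of the 4 libraries, in CPM on a log axis, with an asterisk where the adjusted p was under 0.05. Abca1 drops from 5.00 and 8.04 to 0.136 and 0.105 and Scd1 from 142 and 178 to 25.5 and 26.6, while Soat1, Nr1h3 and Elovl6 lie higher in both dYEATS libraries.

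Other genes of the same paths were read from 5 lists (82 genes, 78 tested), of which 10 rose and 19 fell, against 7.04% and 9.84% of all genes. Among 24 tested genes of fatty acid and glycerolipid synthesis 11 fell and 1 rose (9.84% and 7.04% of all genes), with a median of -0.50. Fads2, the desaturase for polyunsaturated fatty acids, went from 219 and 186 CPM to 17.8 and 19.4 CPM (-3.44 ± 0.14 SE, adjusted p = 0.000329). Fabp5, a fatty acid carrier, had a log2 fold change of -2.35 and Acss2, which makes acetyl-CoA from acetate, one of -1.96 (adjusted p = 0.000457 and 0.000558), and Hacd2, a dehydratase of chain elongation, rose by 1.03. Elongation genes of the list did not move as 1 group: Tecr, a reductase of the same cycle as Hacd2, fell by 0.71 (adjusted p = 0.0142), and Elovl1, Elovl5 and Hacd3 were not called (-0.28, -0.11 and 0.03).

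Among 15 genes of sterol uptake and traffic 3 fell and 2 rose, against 9.84% and 7.04% of all genes (median -0.03). The list is short, and its difference from these shares was not tested. The lipoprotein receptor gene Vldlr had 101 and 171 counts in the MLL-ENL libraries and 0 in both dYEATS libraries, at least 47.6-fold lower against the floor of 3 counts per library. Scarb1, the HDL receptor, fell by 0.45 on the log2 scale. Lipa, which frees cholesterol from esters in lysosomes, and Stard3nl, an endosomal tether, rose by 0.58 and 0.97. Other members of the list lay on the opposite side of these and were not called: the lipoprotein receptor gene Lrp8 was at 85.6 and 120.4 CPM against 159 and 157 CPM (adjusted p = 0.0772), and Npc2, the lysosomal partner of Npc1, at 335 and 226 CPM against 198 and 203 CPM (adjusted p = 0.161).

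Among 8 tested LXR and oxysterol genes 3 rose and 1 fell, where 7.04% and 9.84% of all genes did (median -0.21). Rxra, the partner of LXR, rose from 4.29 and 4.80 CPM to 22.6 and 24.8 CPM (2.38 ± 0.14 SE, adjusted p = 0.000609), and Smpdl3a, a phosphodiesterase known as an LXR target, by 1.06. Plin2, which coats lipid droplets, rose by 0.71, and Cyp27a1, which makes 27-hydroxycholesterol, fell by 1.91. The called genes of this list thus moved in both directions, as Abca1 and Nr1h3 did.

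Of 15 further SREBP pathway genes 2 rose and 1 fell, against 7.04% and 9.84% of all genes (median 0.13). Mbtps2, the site-2 protease that releases SREBP, and Paqr3, a Golgi anchor of SCAP, rose by 0.80 and 1.16, and the ubiquitin ligase Rnf145, which acts on SCAP, fell by 1.05. Of 16 genes that branch from the sterol path 2 rose and 3 fell, against the same shares (median 0.12). Both lists are short, and their difference from these shares was not tested. Lbr, a lamin receptor that is also a sterol C14 reductase and so has the activity of Tm7sf2, rose from 229 and 281 CPM to 470.0 and 473 CPM (0.89 ± 0.13 SE, adjusted p = 0.0114). Aacs, which activates acetoacetate for sterol synthesis, and Pdss2, of coenzyme Q synthesis, fell by 1.05 and 0.61, and the prenylation genes Rabggtb and Fnta had log2 fold changes of 0.49 and -0.53. The C14 reductase step thus held the gene of the sterol path that fell most, Tm7sf2, beside one that rose.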

How the data were processed

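Poly(A) RNA was measured in 4 libraries, 2 per line, grouped by the sample titles. Per the submitters' processing notes, STAR 2.7.8a and RSEM 1.3.3 were used with the build GRCm38, with cutadapt 2.3 and FastQC 0.11.8 also named. Settings, strand and annotation release were not given in the sources used here. The authors deposited expected counts per gene (RSEM estimates, whole numbers as deposited) and FPKM, scaled by the authors for gene length and library size. The 38 genes and all lists were chosen with earlier results of these data known.

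Expected counts were rounded, filtered with filterByExpr, scaled by TMM (CPM are on this scale) and tested over 13245 genes with edgeR 4.0.16 (glmQLFit with legacy set to true, glmQLFTest; R 4.3.3) and Benjamini-Hochberg adjustment, 0.05 being the threshold. SE is the log2 fold change divided by the square root of F, and intervals are 95%. All 38 genes are named, and of each other list at most 3 called genes per direction, those with the largest change at a mean of at least 1 CPM. Outside this rule, Tecr, Elovl1, Elovl5, Hacd3, Lrp8 and Npc2 are named for contrast. The test was checked on counts simulated with the same spread in both groups, which the real pairs did not have. Over the genes tested, the SD of the log2 ratio between libraries was 0.47 in the MLL-ENL pair and 0.29 in the dYEATS pair. Positions and exonic lengths are from GENCODE M21 (GRCm38), promoters from RefSeq. Effective length is the length implied by the ratio of expected count to FPKM. Depth was 27812855 to 28814798 counts, so 3 counts equal 0.102 to 0.112 CPM. The floors and the exact binomial interval of Abca1 cover counting error only. Intervals of log2 fold changes come from the edgeR fit and include the spread between libraries. Alternatives were other scalings and filters, a replicate block, each library left out, DESeq2 1.42.0, limma 3.58.1 on log2 FPKM with pseudocounts of 1 and 0.1, and offsets from a lowess (span 0.3) on effective length. Reads in overlapping genes are uncertain.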

Additional observations from a re-analysis of the deposited data

How the results depend on the processing

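All 20 calls among the 38 genes kept their direction in the 13 alternatives, and 5 (Abca1, Abcg1, Acat2, Scd1 and Tm7sf2) stayed called in each that gave a value. With 1 dYEATS library left out, the spread rests on the wide MLL-ENL pair; with 1 MLL-ENL library left out, on the close dYEATS pair, and the lone library is assumed to vary like the other group. Over these 4 fits the genes that fell numbered 6 to 31 of the 38 and those that rose 0 to 9 (0 with edgeR without either dYEATS library, where 1 was higher at an unadjusted p under 0.05), and over all genes 859 to 4507 fell and 573 to 4581 rose. By role, the calls ranged from 1 to 8 (to isoprenoids), 1 to 11 (squalene to cholesterol), 0 to 8 (SREBP control and traffic, 0 at an unadjusted p without either dYEATS library), 3 to 4 (LXR) and 1 to 6 (fatty acids). With library totals 10 of the 38 fell, with 3 calls from squalene to cholesterol and 0 for SREBP control and traffic (3 at an unadjusted p under 0.05; 3 with DESeq2). With limma on log2 FPKM at either pseudocount 10 fell, with 2, 3 and 0 calls in the first 3 roles (3 in the third at an unadjusted p), and over all genes 837 fell with a pseudocount of 1. Without a filter SREBP control and traffic had 1 call, and of all 21799 genes then tested 5.52% fell and 3.92% rose. With at least 5 CPM in 2 libraries 36 of the 38 genes were tested, 1 rose, 1 LXR gene was called, and over all genes 545 rose and 805 fell, of 9745 tested. With the length trend removed 27 fell, 7 genes to isoprenoids were called, and 1438 of all genes rose. With DESeq2 24 fell and 3 rose.

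Libraries with the same number did not deviate together (Pearson's r = -0.07 across genes between the deviations of the pairs), so the numbers were not taken to pair the libraries. With the replicate number as a block 21 of the 38 fell and 3 rose, and 1435 of all genes rose and 1698 fell; Fdft1, Cyp51 and Insig1 were no longer called (adjusted p = 0.0579, 0.0535 and 0.0622), and 7 others were. By role the block gave 6, 6, 2, 4 and 6 calls.

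Genes that were not called changed sign as follows, and the cause was not tested. With 1 library left out in turn, log2 fold changes ranged from -0.084 to 0.42 (Hsd17b7), -0.32 to 0.16 (Sc5d), -0.33 to 0.10 (Srebf2), -0.083 to 0.23 (Scap), -0.011 to 0.54 (Insig2), -0.46 to 0.14 (Npc1) and -0.086 to 0.024 (Nr1h2). With limma at pseudocounts of 1 and 0.1 Sc5d had 0.069 and 0.071 and Insig2 -0.0059 and -0.0028. With the length trend removed Scap had -0.0015 and Nr1h2 0.0013, and with library totals Nr1h2 had 0.021. Depth limits Abca1 in the dYEATS libraries (4 and 3 counts).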
